A study of Mus musculus with 6 samples.

Results

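The translation initiation factor genes were taken as every gene of the deposited table whose name begins with Eif and a digit, which also takes in the Eif2ak kinases and the Eif4ebp proteins. The rule gave 53 genes of 41386, and 51 of them had at least 10 reads over the 6 libraries and were tested. Eif2c5, which by its name is an argonaute gene and no initiation factor, had 0 reads in every library, and Eif4e1b had 4 reads, all in sham replicate 2. RNA-seq of the mouse hippocampus compared 3 libraries of the ischemia/reperfusion group (I/R), in which a filament blocked the middle cerebral artery for 1.5 h before 24 h of reperfusion, with 3 sham libraries, in which all steps but the filament were done. The labels give every mouse as wild type C57BL/6 aged 56 days. According to the study's methods the mice were male, the tissue was the hippocampus of the operated side, and a library held several pooled hippocampi, so the spread given below is one between pools. Nothing in the labels says that equal replicate numbers mark pools of a shared batch.

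Initiation is the step at which a ribosome is brought to the start codon of an mRNA. The factor eIF2, loaded with GTP and the initiator tRNA, joins the small ribosomal subunit together with eIF1, eIF1A, eIF3 and eIF5, while eIF4E binds the mRNA cap and eIF4G and the helicase eIF4A recruit and open the message. The step has 2 main brakes. Kinases of the Eif2ak family phosphorylate the α subunit of eIF2, which then blocks its own exchange factor eIF2B and sets off the integrated stress response, and the eIF4E-binding proteins hold eIF4E until the kinase mTORC1 phosphorylates them. In brain tissue, phosphorylation of eIF2α early in reperfusion is a textbook cause of the arrest of protein synthesis after ischemia. RNA-seq measures the transcripts of these factors and neither the proteins nor their phosphorylation.

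Libraries held 37493042 to 44788547 counted reads. Levels are given as CPM, the count of a gene relative to the total of its library after TMM scaling, which corrects the total for the make-up of the library. Differences are log2 fold changes of I/R against sham from edgeR's quasi-likelihood test, with p-values adjusted by the Benjamini-Hochberg method over the 22996 genes tested, and a called gene is one whose adjusted p was below 0.05 and whose levels differed by more than 1.2-fold. The groups also differed in cell markers. The summed level of 6 neuronal markers was 1418 to 2938 CPM in I/R and 5256 to 5505 CPM in sham with all 6 genes called lower, and 4 of 5 markers of hippocampal principal neurons were called lower (186 to 411 against 746 to 777 CPM). The 4 endothelial markers were called higher (271 to 449 against 161 to 162 CPM), as were the 4 tested markers of neutrophils and monocytes (15.7 to 53.3 against 3.89 to 5.22 CPM), while Ly6g had too few reads to be tested. Of 4 astrocyte markers, 2 were called higher and 1 lower, and the I/R sum was 2378 to 3031 against 1184 to 1274 CPM. Gfap carried the rise of this sum, with group means of 1980 (I/R) against 406 CPM (sham). In the same order, Aqp4 was called higher (156 against 110 CPM) and Slc1a3 lower (467 against 651 CPM). Aldh1l1 was not called (58.7 against 51.0 CPM), so the sum does not show a shared rise of astrocyte markers. Oligodendrocyte markers summed to 5617 to 6460 against 6793 to 8307 CPM with 1 of 5 called, lower. Microglial markers summed to 159 to 211 and 168 to 197 CPM with 1 of 6 called higher and 2 lower, and Itgam was at 0 in all 6 libraries. I/R replicate 1 had the lowest neuronal sum, and I/R replicate 3 and sham replicate 1 held few reads of choroid plexus genes (31.7 and 35.1 CPM over 5 markers against 1539 to 4346 CPM in the other 4 libraries). The part of these cell types in the results was not tested, and in bulk tissue fewer cells of a type cannot be told apart from less RNA per cell.

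Most initiation factor genes that changed were higher after I/R. Of the 51 tested genes, 26 (51.0%) were called higher and 3 (5.88%) were called lower, where 17.2% and 16.3% of all tested genes were called higher and lower. Together 29 (56.9%) were called, against a background of 33.4%. The median log2 fold change was 0.30 over the initiation factor genes and 0.07 over all tested genes. The background share depends on the read filter. With at least 10 reads required in every library, 32 of 50 initiation factor genes and 44.1% of all tested genes were called. In 38 of the 51 genes (74.5%) all 3 I/R libraries lay on one side of all 3 sham libraries, which was so for 50.4% of all tested genes. Such a split gives a single gene a p of 0.1 in an exact two-sided permutation test, and 3 against 3 libraries cannot go lower. The changes were mostly small, since 3 of the 51 genes, Eif4ebp1, Eif2s2 and Eif2ak2, were called at more than 2-fold. At that limit 12.8% of all tested genes were called. Of the 22 genes that were not called, 14 had positive and 8 had negative log2 fold changes.

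The lower calls depended on the scaling of the libraries. Scaling by library size alone moved the median of all tested genes to 0.35 and gave 39 initiation factor genes called higher and 0 lower by edgeR, so that 100% in place of 89.7% of the calls were higher. With this scaling 36.7% of all tested genes were called either way. DESeq2 with its own size factors and limma-voom with TMM each gave 3 lower calls. The median of the initiation factor genes stood 0.23 above that of all tested genes under either scaling, a gap that a scaling common to all genes hardly alters. It was 0.165 with no count filter, 0.338 with at least 10 reads in every library and 0.433 with limma on log2(FPKM + 1). In all, 18 of the 26 higher calls and none of the 3 lower calls passed in all 18 other settings of scaling, filter, test, unit and library choice.

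**Figure D1:**
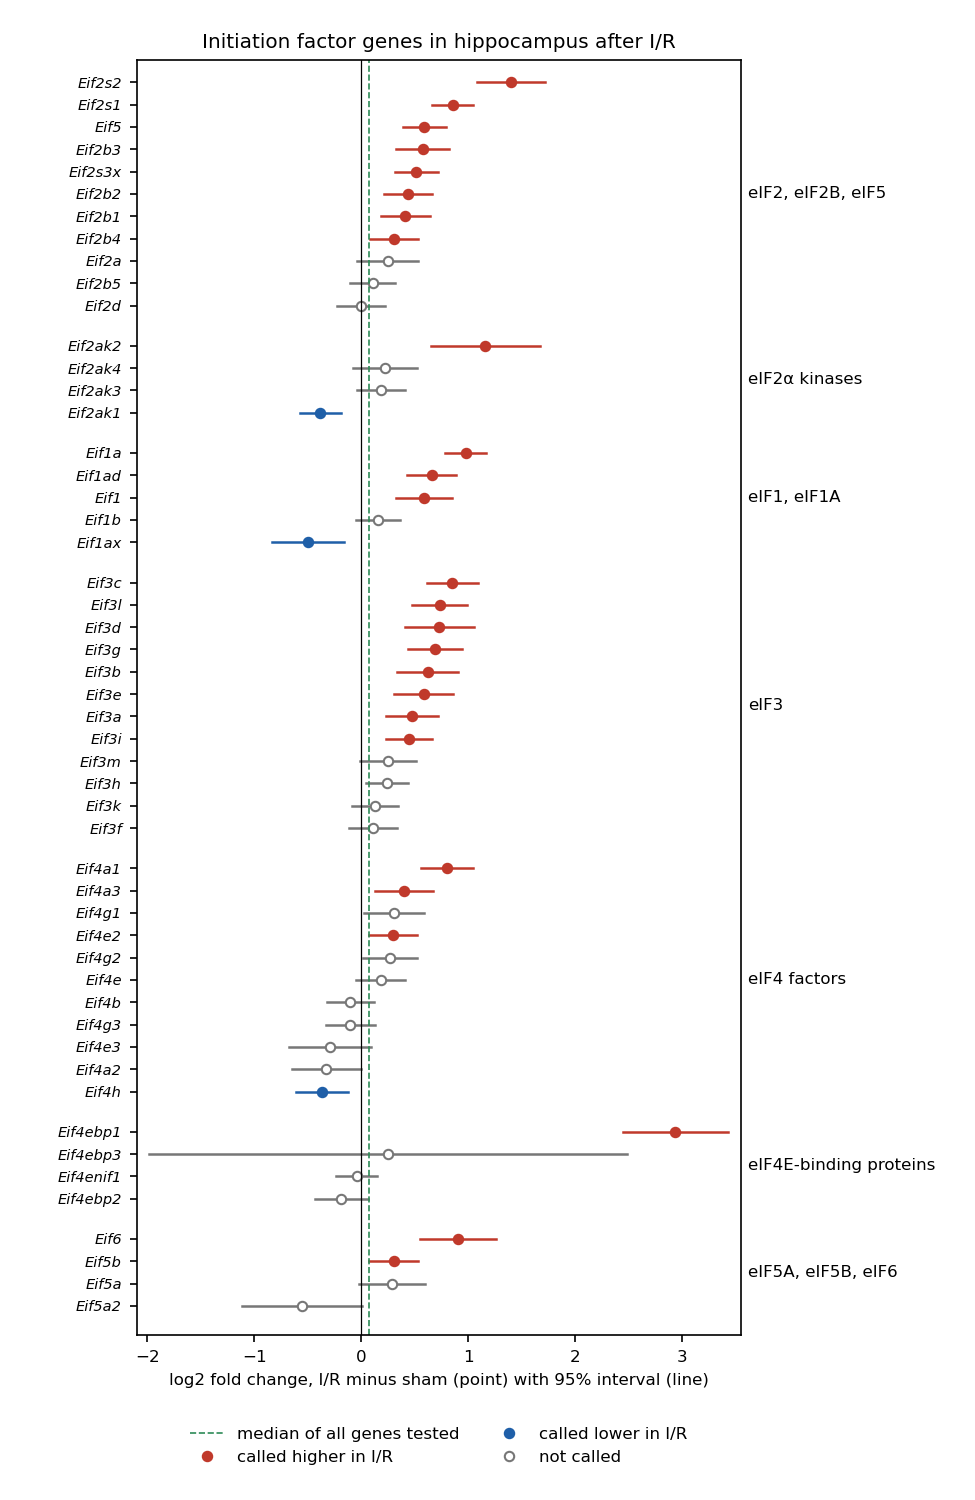
Log2 fold change of I/R against sham (horizontal axis, point) with its 95% interval (line) for each of the 51 tested initiation factor genes, grouped by role, with red for called higher, blue for called lower, open grey for not called and a dashed line at the median of all tested genes. All 12 eIF3 genes lie above 0, Eif4ebp1 lies farthest to the right at 2.94, and the 3 lower calls are Eif1ax, Eif2ak1 and Eif4h.

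Genes of the ternary complex and of eIF2B, which deliver the initiator tRNA, rose in 8 of 11 cases, against 17.2% of all tested genes. Their median log2 fold change was 0.44. Eif2s2, the gene of the β subunit of eIF2 (MGP_BALBcJ_G0026702, chromosome 2, 153595283 to 153619539, minus strand of the BALB/cJ assembly), had the highest fold change of the group. Its level was 93.2, 132 and 132 CPM in I/R replicates 1 to 3 and 46.4, 42.1 and 47.2 CPM in sham replicates 1 to 3. Every I/R library stood above every sham library, and I/R replicate 1 was the lowest of its group. The log2 fold change was 1.40 ± 0.14 (SE, n = 3 against 3, adjusted p = 0.000283 by edgeR). Eif2s2 overlaps a gene named a on the opposite strand, and whether reads were counted by strand is not stated. Eif2s1, which encodes the α subunit that the stress kinases phosphorylate, rose by 0.85 ± 0.08 on the log2 scale (adjusted p = 0.000248), from 49.3 ± 1.75 to 89.2 ± 2.80 CPM (SD, n = 3 each). Eif2s3x, the γ subunit that binds GTP, rose by 0.52 ± 0.09, and Eif2s3y was not analysed here. A stretch of 50 bases identical to a pseudogene or other gene was found at 34.6% of the positions in Eif2s3x transcripts and at 10.2% in Eif2s2, so their counts are uncertain by the share of reads that could fit elsewhere. Eif5, which triggers GTP hydrolysis by eIF2, rose by 0.59 ± 0.09.

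The exchange factor eIF2B, whose mutation causes a white matter disease, has 5 subunits, and 4 of its genes rose. Of all tested genes, 17.2% were called higher. Eif2b3 (0.58 ± 0.11), Eif2b2 (0.44 ± 0.10), Eif2b1 (0.41 ± 0.10) and Eif2b4 (0.31 ± 0.10) encode the γ, β, α and δ subunits. Eif2b5, which encodes the catalytic ε subunit, was not called at 0.11 with an interval of -0.10 to 0.32, and its groups overlapped. The call of Eif2b1 was lost without sham replicate 1 or 3 and that of Eif2b4 without I/R replicate 2 or 3 or sham replicate 1 or 3, at log2 fold changes of 0.35 to 0.47 and 0.25 to 0.40 with any 1 library left out. The alternative initiator tRNA carriers Eif2a and Eif2d were not called. Eif2d had the lowest fold change of the group, with 26.2, 28.2 and 30.3 CPM in I/R and 27.4, 29.0 and 28.4 CPM in sham, which overlapped and gave -0.00 with an interval of -0.23 to 0.22. Without I/R replicate 1, Eif2a was called at 0.38.

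The 4 kinases of eIF2α did not move together. Among them 1 was called higher and 1 lower, where 17.2% and 16.3% of all tested genes were called higher and lower. Eif2ak2 encodes PKR, the kinase activated by double-stranded RNA and induced by interferon (MGP_BALBcJ_G0024002, chromosome 17, 79052159 to 79088178, minus strand of the BALB/cJ assembly). It had 20.5, 16.3 and 14.1 CPM in I/R and 5.30, 8.07 and 9.36 CPM in sham. The groups did not overlap, but both were spread, and sham replicate 3 lay closest to the I/R libraries. The log2 fold change was 1.16 ± 0.22 (adjusted p = 0.00425), and the gene was called in all other settings. Eif2ak1 encodes HRI, the kinase that responds to heme shortage and mitochondrial stress, and it had 60.6, 60.2 and 64.9 CPM in I/R and 83.5, 80.3 and 78.2 CPM in sham. All I/R libraries were below all sham libraries, by -0.38 ± 0.08 on the log2 scale (adjusted p = 0.00774). With scaling by library size alone Eif2ak1 was not called at -0.11, and it overlaps Ankrd61 and Aimp2 on the opposite strand.

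Eif2ak3, the gene of PERK, the kinase of the endoplasmic reticulum, had 32.6, 30.4 and 28.1 CPM in I/R and 26.2, 27.1 and 27.0 CPM in sham. The groups did not overlap, yet the difference of 0.18 had an interval of -0.04 to 0.41 and was not called (adjusted p = 0.189). Eif2ak4, the gene of GCN2, which senses uncharged tRNA, had 40.6, 28.7 and 32.4 CPM in I/R and 29.2, 29.7 and 28.6 CPM in sham, with I/R replicate 1 alone well above the others. Its difference of 0.22 had an interval of -0.08 to 0.52 and was 0.07 without I/R replicate 1.

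The interferon-stimulated response element is shown for Eif2ak2 because this gene had the largest change among the kinases and the element is the one through which interferon is known to act. The motif GAAANNGAAA, searched on both strands, was present in the promoter windows (250 bases before to 50 after the start site, RefSeq, GRCm38.p6) of 4 of 42 matched initiation factor genes (9.52%), namely Eif2ak2, Eif2s1, Eif2s3x and Eif3a. A gene can have several windows, and counted in the same way 3.99% of 27025 genes had a match. Counted by window, 4 of 55 windows of initiation factor genes (7.27%) and 3.44% of all 32851 windows held it. In Eif2ak2 it lies 19 to 28 bases after the start site, at chr17:78882535-78882564 on the minus strand in the 30 bases given here, with the motif in capitals.
Eif2ak2: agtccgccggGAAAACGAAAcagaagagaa

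Among the 5 genes that act in scanning for the start codon, 3 rose, 1 fell and 1 was not called. Of all tested genes, 17.2% were called higher and 16.3% lower. Eif1a and Eif1ax encode near-identical forms of eIF1A, which holds the scanning ribosome open, and they moved in opposite directions. Eif1a had 73.6, 72.1 and 71.4 CPM in I/R and 37.7, 34.7 and 37.8 CPM in sham. The replicates of each group were close together and the groups far apart, with a log2 fold change of 0.98 ± 0.09 (adjusted p = 0.000162). Eif1ax, on the X chromosome, had 120, 170 and 181 CPM in I/R and 234, 209 and 222 CPM in sham. The I/R libraries were all below the sham libraries and I/R replicate 1 was lowest, as it was for the neuronal markers. The difference was -0.50 ± 0.15 (adjusted p = 0.0317), and it was -0.34 without I/R replicate 1. The call of Eif1ax was lost without I/R replicate 2 or any 1 sham library and with scaling by library size alone, where the difference was -0.23.

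Eif1, the factor that checks start codon pairing, had 318, 260 and 260 CPM in I/R and 184, 197 and 177 CPM in sham, a rise of 0.59 ± 0.12 on the log2 scale. Its paralog Eif1b had 131, 115 and 122 CPM in I/R and 110, 112 and 108 CPM in sham, which did not overlap but differed by 0.16 with an interval of -0.04 to 0.36. Eif1ad, a nuclear relative of eIF1A, rose by 0.66 ± 0.10. Stretches of 50 bases shared with other genes covered 19.2% of Eif1 positions.

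Genes of eIF3, the largest initiation factor and the scaffold that binds the small ribosomal subunit, were positive throughout. Of its 12 genes, 8 rose and 4 were not called, with a median log2 fold change of 0.53. Of all tested genes, 17.2% were called higher. With scaling by library size alone all 12 eIF3 genes were called higher. That scaling also raised the median of all tested genes from 0.07 to 0.35. It called 36.7% of all tested genes either way, and the share called higher alone is not given here. Eif3c had the highest change, with 404, 408 and 360 CPM in I/R and 210, 225 and 216 CPM in sham. The I/R libraries did not come near the sham libraries, and the log2 fold change was 0.85 ± 0.11 (adjusted p = 0.000623). Eif3l (0.73 ± 0.11), Eif3d (0.73 ± 0.14, the subunit that can bind the cap of some mRNAs), Eif3g (0.69 ± 0.11), Eif3b (0.62 ± 0.12), Eif3e (0.59 ± 0.12), Eif3a (0.48 ± 0.11) and Eif3i (0.45 ± 0.10) rose as well. Eif3f, Eif3h, Eif3k and Eif3m were not called, and Eif3f and Eif3h encode the subunits of eIF3 with an MPN domain. Eif3f had 119, 97.6 and 102 CPM in I/R and 97.1, 103 and 95 CPM in sham, which overlapped and differed by 0.11 with an interval of -0.12 to 0.34. The changes of Eif3h, Eif3k and Eif3m were 0.24, 0.13 and 0.25. Eif3h, whose groups did not overlap, missed the threshold at an adjusted p of 0.0616, and Eif3m was called at 0.36 without I/R replicate 1. The shared stretches covered 20.3% of Eif3h and 17.2% of Eif3m positions. Eif3j was not analysed here.

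**Figure D2:**
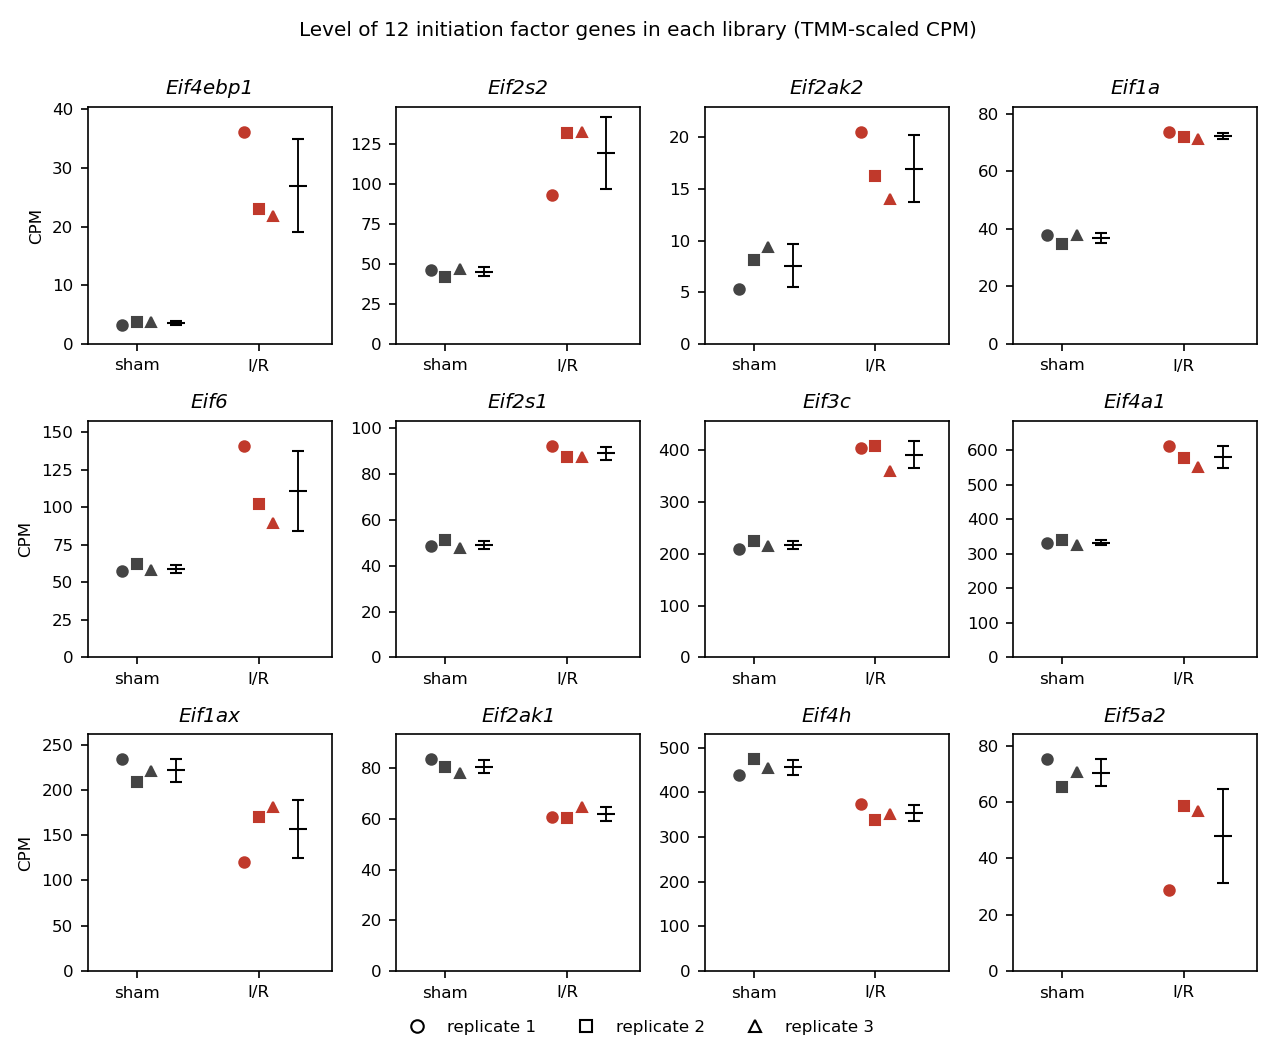
Level in CPM (vertical axis, from 0) of 12 initiation factor genes in each sham library (grey) and I/R library (red), with marker shapes for replicates 1 to 3 and a bar for the mean ± SD of 3 libraries. The I/R libraries lie above the sham libraries in the upper 8 panels and below them in the lower 4, and I/R replicate 1 is the lowest library for Eif1ax and Eif5a2.

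The eIF4 factors that bind the cap and unwind mRNA were mixed, with 3 of 11 tested genes called higher, 1 lower and 7 not called, and a median log2 fold change of 0.18. The share called was near the 33.4% of all tested genes. Eif4a1 and Eif4a2 encode near-identical forms of the helicase eIF4A. Eif4a1 (chromosome 11, 67792674 to 67798162, minus strand of the BALB/cJ assembly) had 613, 576 and 552 CPM in I/R and 331, 340 and 326 CPM in sham, and its log2 fold change of 0.80 ± 0.11 was the highest of the group (adjusted p = 0.00089). Eif4a2 (chromosome 16, 19882618 to 19888852, plus strand of the same assembly) had 489, 627 and 668 CPM in I/R and 767, 728 and 739 CPM in sham. Its I/R libraries all lay below the sham libraries, with I/R replicate 1 lowest, but the difference of -0.32 was not called (adjusted p = 0.115) and was -0.05 with scaling by library size alone. Shared 50-base stretches covered 28.4% of Eif4a1 and 10.6% of Eif4a2 positions, and small RNA genes lie inside both.

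Eif4a3, the helicase of the exon junction complex, rose by 0.40 ± 0.12, and Eif4e2, a cap-binding protein that represses translation, by 0.30 ± 0.10. The call of Eif4e2 was lost without any 1 library (0.23 to 0.35) and that of Eif4a3 without I/R replicate 2 or any 1 sham library (0.28 to 0.47 with any 1 library left out). Eif4h, which stimulates the helicase, had the lowest change of the group, with 374, 337 and 351 CPM in I/R and 438, 473 and 455 CPM in sham. Its groups did not overlap and the difference was -0.37 ± 0.11 (adjusted p = 0.0282). That call was lost without I/R replicate 2 or any 1 sham library, and with scaling by library size alone the difference was -0.08.

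The cap-binding protein gene Eif4e had 132, 154 and 160 CPM in I/R and 131, 135 and 126 CPM in sham. I/R replicate 1 lay among the sham libraries, and the difference of 0.18 was not called, although it was 0.27 and called without that library. Eif4e3, a relative of eIF4E, had 10.1, 15.1 and 15.1 CPM in I/R and 15.3, 17.6 and 16.4 CPM in sham, and its difference of -0.29 had an interval of -0.68 to 0.09. The scaffold gene Eif4g1 had 588, 495 and 480 CPM in I/R and 405, 435 and 424 CPM in sham, which did not overlap, with a difference of 0.31 and an adjusted p of 0.0839. Its paralog Eif4g3 had 256, 291 and 269 CPM in I/R and 284, 296 and 296 CPM in sham, with a difference of -0.10 and an interval of -0.33 to 0.13. Eif4g2, the relative of eIF4G that lacks the eIF4E site and is also called DAP5, missed the threshold at 0.27 (adjusted p = 0.0912) and passed it without I/R replicate 1 at 0.29. Eif4b, a helicase partner, was at -0.10, and the signs of Eif4b and Eif4g3 turned positive with scaling by library size alone.

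The promoter sequences of the Eif4a pair are shown because the 2 genes code for forms of the same helicase and the ratio of their levels did not overlap between the groups. Each line gives bases 250 to 1 before the RefSeq start site on GRCm38.p6, at chr11:69672424-69672673 (minus strand) for Eif4a1 and chr16:23107218-23107467 (plus strand) for Eif4a2, and capitals mark the palindromic E-box CACGTG, a motif known to be bound by MYC and related factors.
Eif4a1: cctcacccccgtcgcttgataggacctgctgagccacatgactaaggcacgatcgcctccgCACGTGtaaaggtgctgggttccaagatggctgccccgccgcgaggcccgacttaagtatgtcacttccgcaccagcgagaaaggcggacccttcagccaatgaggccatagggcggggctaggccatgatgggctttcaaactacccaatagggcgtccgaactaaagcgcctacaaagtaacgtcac
Eif4a2: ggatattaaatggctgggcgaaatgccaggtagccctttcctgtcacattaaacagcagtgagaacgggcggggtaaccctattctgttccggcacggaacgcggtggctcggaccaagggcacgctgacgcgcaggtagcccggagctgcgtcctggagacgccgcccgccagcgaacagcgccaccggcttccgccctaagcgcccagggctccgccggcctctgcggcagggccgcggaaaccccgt

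The window of Eif4a1 held 1 E-box and that of Eif4a2 held 0. An E-box was present in a window of 10 of the 42 matched initiation factor genes (23.8%) and of 8.09% of all genes with windows. By window, the shares were 12 of 55 (21.8%) and 7.15% of all windows. The 10 genes were Eif1b, Eif3a, Eif3f, Eif3k, Eif4a1, Eif4e, Eif4g1, Eif4h, Eif5a and Eif5a2. Of these, 2 (Eif3a and Eif4a1) were called higher and 1 (Eif4h) lower. That share was close to the 33.4% of all tested genes called either way and below the 56.9% of the 51 tested initiation factor genes. The cAMP response element TGACGTCA (1.79% of all windows) and the ATF4-bound element TGATGCAA (0.895% of all windows), searched on both strands, matched in 0 of the 55 windows of the 42 genes. Windows were not matched for 11 of the 53 genes, among them Eif4ebp1, Eif1a and Eif6.

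The eIF4E-binding proteins held the gene with the largest change of all initiation factor genes. Eif4ebp1 (MGP_BALBcJ_G0033482, chromosome 8, 24650955 to 24667054, plus strand of the BALB/cJ assembly) encodes the repressor that competes with eIF4G for eIF4E, and it is a known target of ATF4. It had 36.1, 23.1 and 21.8 CPM in I/R (1669, 926 and 875 reads) and 3.14, 3.65 and 3.77 CPM in sham (122, 147 and 129 reads). The sham libraries were close together, and the lowest I/R library stood far above the highest sham library. The log2 fold change was 2.94 ± 0.22, a fold of 7.66 (adjusted p = 9.44e-05), and it stayed between 2.67 and 3.05 with any 1 library left out. The other 3 genes of the group were not called, where 17.2% of all tested genes were called higher. Eif4ebp2, the main form in brain, had 23.3, 23.7 and 24.1 CPM in I/R and 27.0, 29.8 and 24.0 CPM in sham, with a difference of -0.19 and an interval of -0.43 to 0.06. Eif4ebp3 had 11, 7 and 11 reads in I/R and 9, 0 and 12 reads in sham, which at this depth cannot show a difference (-1.99 to 2.49), and its reads are uncertain because it overlaps Ankhd1 on the same strand and shares 65.5% of its 50-base stretches. Eif4enif1, which carries eIF4E into the nucleus, had 53.4, 52.2 and 52.6 CPM in I/R and 57.3, 54.4 and 51.4 CPM in sham, with a difference of -0.04.

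Of the 4 factors that act at or after the joining of the ribosomal subunits, Eif6 and Eif5b rose, where 17.2% of all tested genes were called higher. Eif6, which keeps the large subunit from joining too early, had 141, 102 and 89.3 CPM in I/R and 57.2, 62.2 and 57.9 CPM in sham. The groups were clearly apart although the I/R libraries were spread, with I/R replicate 1 highest, and the log2 fold change was 0.91 ± 0.16 (adjusted p = 0.00255), or 0.70 without I/R replicate 1. Eif5b, the GTPase of subunit joining, rose by 0.30 ± 0.10, and this call was lost without I/R replicate 2 or 3 or any 1 sham library (0.25 to 0.37 with any 1 library left out). Eif5a and Eif5a2 encode forms of the hypusine-bearing factor that helps stalled ribosomes. Eif5a had 235, 176 and 172 CPM in I/R and 146, 172 and 159 CPM in sham, which overlapped, with a difference of 0.29 and an interval of -0.02 to 0.60. Eif5a2 had 28.7, 58.4 and 56.7 CPM in I/R and 75.1, 65.4 and 70.5 CPM in sham. All I/R libraries were lower and I/R replicate 1 was far below the rest, and the difference of -0.55 was not called (adjusted p = 0.12). Without I/R replicate 1 the difference was smaller, at -0.29, and was called.

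The balance of related genes was then read within each library, where it does not depend on scaling, as the log2 ratio of the authors' FPKM (reads relative to gene length and library total). The 6 pairs and which gene is divided by which were chosen with earlier results of these data known, so their shared direction is no evidence of its own. In all 6 the ratio was higher in the 3 I/R libraries than in the 3 sham libraries, and each pair had a p of 0.1 in the exact two-sided permutation test, also 0.1 after Benjamini-Hochberg adjustment over the 6 pairs, so that no pair could pass a threshold of 0.05. The ratio of Eif4a1 to Eif4a2 was 1.02, 0.751 and 0.674 in I/R, against 0.352, 0.382 and 0.361 in sham, on the log2 scale -0.32 ± 0.31 against -1.46 ± 0.06 (SD, n = 3), a difference of 1.14. Eif4a2 was thus the more abundant form in all sham libraries, and the forms were about level in I/R replicate 1. The ratio of Eif4ebp1 to Eif4ebp2 was 2.82, 1.77 and 1.64 in I/R, against 0.212, 0.223 and 0.286 in sham, a difference of 3.08 on the log2 scale. Eif4ebp1 was the lesser form in every sham library and the greater form in every I/R library.

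The log2 ratio differed by 0.43 for Eif1 over Eif1b, by 0.49 for Eif4e over Eif4e3 and by 0.41 for Eif4g1 over Eif4g3. For Eif5a over Eif5a2 the linear ratio was 55.1, 20.3 and 20.4 in I/R, against 13.1, 17.7 and 15.2 in sham, and the log2 difference of 0.90 became 0.42 without I/R replicate 1. Other relatives were not among the pairs and had close log2 fold changes from edgeR, 0.18 for Eif4e and 0.30 for Eif4e2, and 0.31 for Eif4g1 and 0.27 for Eif4g2. The pool with the lowest neuronal markers, I/R replicate 1, had the highest ratio of all libraries in each of the 6 pairs, and the part of neuronal RNA in these ratios was not tested. The FPKM of several genes imply a shorter length than the length listed in the table, for example 976 against 3168 bases for Eif4a1 and 797 against 2809 for Eif4a2, which shifts a ratio by the same amount in every library and leaves the differences unaltered.

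**Figure D3:**
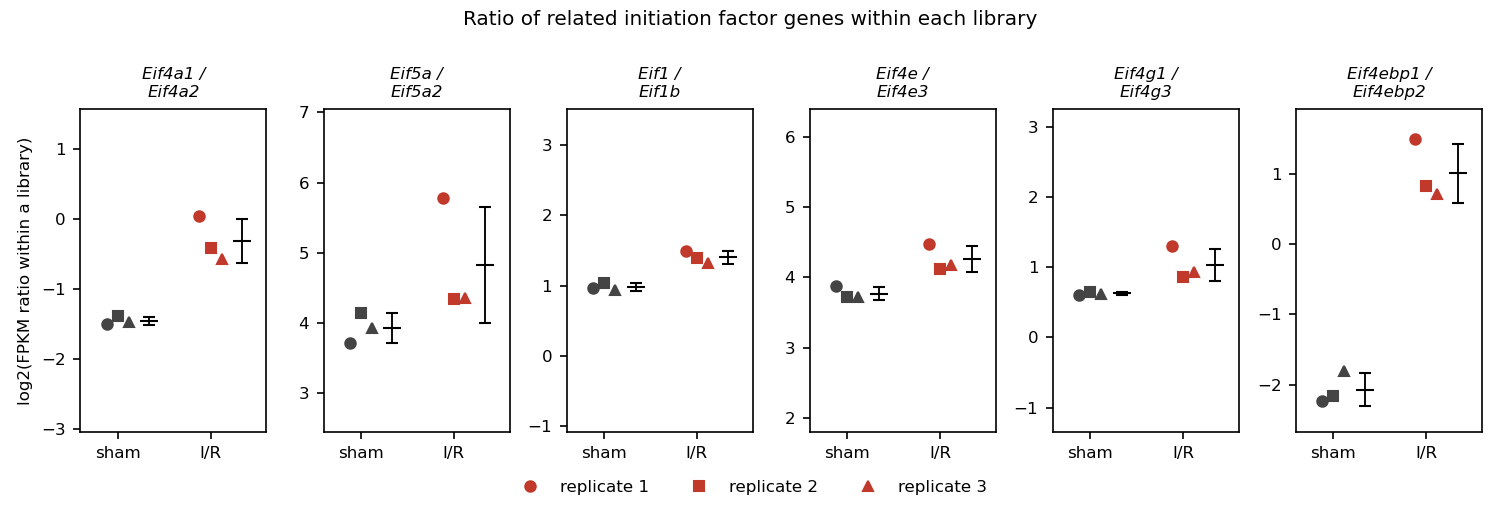
Log2 ratio of the FPKM of 2 related genes within a library (vertical axis, each panel spanning the same number of log2 units) for 6 pairs, in sham (grey) and I/R (red), with marker shapes for replicates 1 to 3 and a bar for the mean ± SD of 3 libraries. In every panel the I/R libraries lie above the sham libraries, with the widest gap, 3.08, for Eif4ebp1 over Eif4ebp2 and with I/R replicate 1 on top.

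By FPKM, the most abundant initiation factor transcripts in sham hippocampus were Eif4a2 (849 ± 30.3, SD, n = 3), Eif4g2 (674 ± 4.31) and Eif4a1 (310 ± 4.34), followed by Eif4h (233 ± 6.82) and Eif1 (214 ± 9.90). In I/R, Eif4g2 (986 ± 28.3) and Eif4a2 (818 ± 90.3) were followed by Eif4a1 (656 ± 69.3). FPKM are not corrected for the composition of the library, so levels in I/R are compared here between genes and not with sham, and the order rests on the gene lengths the authors used. At the low end in sham were Eif4ebp3 (0.238 ± 0.219), Eif4ebp1 (3.26 ± 0.297), Eif2ak2 (4.43 ± 1.2) and Eif4e3 (5.94 ± 0.364). Eif4ebp1 and Eif2ak2, with high changes in I/R, were among the scarcest tested initiation factor genes in sham.

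Genes listed as outputs of the integrated stress response rose together. Phosphorylation of eIF2α was not measured, and the cause of their rise was not tested. All 12 listed output genes were called higher, where 17.2% of all tested genes were. The list was chosen with earlier results of these data known. The median log2 fold change of the 12 genes was 1.26, and 11 of them passed in all other settings. Atf4, the transcription factor whose mRNA is translated when eIF2 is limiting, had 254, 230 and 216 CPM in I/R and 111, 125 and 110 CPM in sham, with a log2 fold change of 1.02 ± 0.11. Its target Ddit3, which encodes CHOP, had 69.0, 53.4 and 60.0 CPM in I/R and 23.4, 26.2 and 21.8 CPM in sham (1.35 ± 0.12). Ppp1r15a, the gene of GADD34, which brings a phosphatase back to eIF2α, had 77.6, 57.3 and 48.2 CPM in I/R and 15.9, 17.5 and 16.8 CPM in sham (1.87 ± 0.17). No library of either group overlapped the other in these 3 genes. Trib3, a pseudokinase that dampens ATF4 signalling, had the largest change of the list at 4.26 ± 0.42, followed by Nupr1 at 2.39 ± 0.20.

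Genes of the mTORC1 and MNK kinases, which control eIF4E and its binding proteins, showed no common direction. Of 15 tested genes, 2 were called higher and 3 lower, with a median of -0.11, a share of calls near the 33.4% of all tested genes, so the values of single genes below are descriptions of those genes. Pdcd4, an inhibitor of eIF4A that mTORC1 signalling removes, had 38.2, 58.4 and 53.4 CPM in I/R and 99.1, 86.6 and 90.6 CPM in sham, a difference of -0.88 ± 0.15 (adjusted p = 0.00239) that passed in all other settings. Mtor (-0.42 ± 0.09) and Tsc2 (-0.32 ± 0.08) were also called lower, although neither was called with scaling by library size alone. Rheb, the activator of mTORC1, rose by 0.56 ± 0.13 and the S6 kinase gene Rps6kb2 by 0.52 ± 0.15. With any 1 library left out the values were -0.35 to -0.30 for Tsc2, 0.44 to 0.70 for Rheb and 0.39 to 0.62 for Rps6kb2, and leaving out sham replicate 3 ended the call of each. The call of Tsc2 also ended without sham replicate 2, that of Rheb without I/R replicate 2 or any 1 sham library, and that of Rps6kb2 without I/R replicate 3 or sham replicate 1. Akt1s1 was not analysed here.

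Over all tested genes, 17.2% were called higher, 16.3% lower and 33.4% either way, the background for each list in this paragraph. Among 14 partners of initiation, 5 were called higher and 2 lower. The poly(A)-binding protein genes Pabpc4 (0.81 ± 0.15) and Pabpc1 (0.61 ± 0.10) and the ribosome recycling factor gene Abce1 (0.51 ± 0.12) had the largest rises. Gigyf2, the partner of the repressor eIF4E2, and the nuclear cap-binding gene Ncbp2 were called lower at -0.39 ± 0.08 and -0.35 ± 0.08, and not called with scaling by library size alone. The call of Abce1 ended without sham replicate 2 or 3 (0.44 to 0.62 with any 1 library left out) and that of Ncbp2 without sham replicate 2 (-0.39 to -0.31). Of 13 tested genes of elongation, release and hypusination, 6 were called higher, led by Etf1 (0.76 ± 0.09), Eef1e1 (0.67 ± 0.09) and Eef1b2 (0.62 ± 0.11), and 2 lower, the neuronal elongation factor gene Eef1a2 (-0.63 ± 0.14) and Gspt2 (-0.50 ± 0.13), whose call ended without sham replicate 1 or 2 (-0.64 to -0.38) and with scaling by library size alone (-0.23). Eef1a1 was not analysed here. Of 8 mitochondrial translation factor genes, 0 were called by edgeR, DESeq2 or limma-voom and 0 had an unadjusted p under 0.05, while 2 were called with scaling by library size alone. Among these 8, Tufm had under 0.3 CPM in every library.

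**Figure D4:**
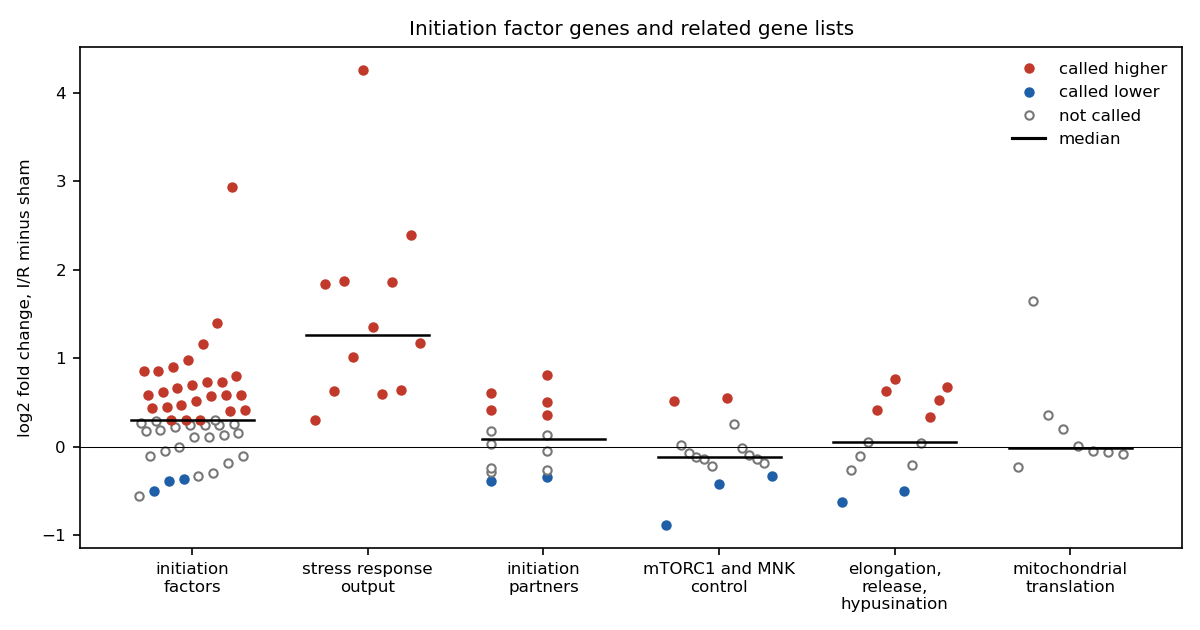
Log2 fold change of I/R against sham (vertical axis) of each tested gene in the initiation factor genes and in 5 related lists, with red for called higher, blue for called lower, open grey for not called and a line at the median of each list. All 12 stress response genes are called higher with a median of 1.26, against 0.30 for the initiation factor genes and -0.11 for the mTORC1 and MNK list, and none of the 8 mitochondrial genes is called. Of all tested genes, 17.2% were called higher and 33.4% either way, and the lists were chosen with earlier results of these data known.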

How the data were processed

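RNA-seq was done on 3 I/R and 3 sham hippocampal libraries, and groups were taken from the sample titles. The authors aligned reads with TopHat2 to an Ensembl genome and counted them per gene with HTSeq 0.6.1p2, and the deposited table holds these raw counts with identifiers of the BALB/cJ strain annotation. The submitters' processing notes name Bowtie 0.12.2 and mm8 instead. The deposited FPKM were computed by the authors from the counts, a gene length and the library total. How reads that fit several genes were counted is not stated. If they were dropped, genes with near-identical copies may be undercounted. The table's group means and the authors' own comparison columns (fold changes and p-values) were not used.

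The table's 4 split lines were rejoined. The test was edgeR 4.0.16 under R 4.3.3 on genes with at least 10 reads over 6 libraries (TMM, the trimmed mean of M-values, for scaling, robust quasi-likelihood F-test, no covariates). SE is the log2 fold change divided by the square root of F, and intervals are 95% intervals. Precision rests on 3 libraries a group, of 37493042 to 44788547 reads each. The script was run on simulated counts in which 200 genes were changed, where 7688 genes were called in the real data. That run does not bear on the choice of scaling. DESeq2 1.42.0 and limma 3.58.1 gave alternatives. The members and all gene lists were chosen with earlier results of these data known. The named genes were the highest and lowest of each class, all kinases and eIF4E-binding proteins, the 6 pairs, calls at a log2 change of at least 1, and up to 3 genes of a related list in each direction besides Atf4, Ddit3 and Ppp1r15a. Motifs were searched in RefSeq windows of GRCm38.p6, and shared 50-base stretches in GENCODE transcripts. No coordinates were converted between assemblies.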

Additional observations from a re-analysis of the deposited data

How the results depend on the processing

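The number of initiation factor genes called higher kept within 1.5 times of 26 in all settings of scaling, filter, test, unit and library choice, whereas the count of lower calls and the total did not. Leaving out I/R replicate 3 and sham replicate 1, which hold few reads of the choroid plexus gene Ttr, gave 18 calls, 18 higher and 0 lower. The share of all tested genes called also fell, from 33.4% to 23.4%. Library size scaling, limma on log2(FPKM + 1) and limma on log2(FPKM + 0.1) each gave 0 lower calls, with 39, 38 and 39 higher. In the same order, 36.7%, 33.9% and 35.9% of all tested genes were called either way. With 1 library left out in turn, the total ranged from 22 to 33 and the lower calls from 1 to 4. The share of all tested genes called then ranged from 22.8% to 36.6%. A fold change over 2 left 3 calls, 3 higher and 0 lower, where 12.8% of all tested genes were called. DESeq2 called 31 genes and limma-voom 29, where they called 36.4% and 33.4% of all tested genes. The replicate block gave 24 calls (22 higher, 2 lower), where 27.8% of all tested genes were called. Same-numbered libraries did not deviate together (correlations of -0.052, 0.033 and -0.098), so the numbers were not taken as pairs. Of 917 fits of 51 single genes, 787 kept direction and side of the threshold, 59 lost and 49 gained a call, and 22 changed sign, none of them in a gene called above. With library size scaling, FPKM + 0.1 and FPKM + 1, in that order, Eif4b was at 0.175, 0.175 and 0.173, Eif4g3 at 0.172, 0.171 and 0.170, Eif4ebp2 at 0.0928, 0.0968 and 0.0908, Eif4enif1 at 0.235, 0.234 and 0.227 and Eif2d at 0.273, 0.271 and 0.252. With at least 10 reads in every library, Eif4enif1 was at 0.00622 and Eif2d at 0.0470, and with edgeR's filterByExpr Eif2d was at 0.0200. With 1 library left out, Eif4ebp3 ranged from -0.34 to 0.97 and Eif2d from -0.0775 to 0.0510. Leaving out libraries for the ratios of related genes was added after seeing the data and reversed no difference. The cause of these shifts was not tested. At the lowest depth, Eif4ebp3 with 0 to 12 reads a library could not show a difference.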
